A study of Mus musculus with 4 samples.

Results

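Melanin is made from tyrosine inside melanosomes, organelles related to the lysosome. Tyrosinase starts the synthesis, 2 related enzymes act on later intermediates, and the pigment is laid down on fibrils that fill the organelle. In the eye these genes are used by the retinal pigment epithelium, by the pigmented epithelia of the ciliary body and iris, and by the melanocytes of the uvea. The lens itself is transparent and is not known as a pigmented tissue. The genes described here are 10 genes of melanin synthesis and pigment cells, of which 7 were among the 14924 genes of the deposited table: the enzymes *Tyr*, *Tyrp1* and *Dct*, the melanosome proteins *Pmel*, *Mlana* and *Oca2*, and the transcription factor *Mitf*. They were taken from the table by symbol and Ensembl identifier, and they were chosen by their values in these *S100A4*-/- and WT lenses, among them the high *Dct* of the *S100A4*-/- libraries, so the differences between the groups are described below without a p-value. *Slc45a2*, *Gpr143* and *Sox10* were not analysed here.

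The study asked what changes in the lens when S100A4, a small calcium-binding protein abundant in lens fiber cells, is missing. RNA of whole lenses was sequenced in 2 libraries of *S100A4*-/- mice, which carry the null allele in all tissues, and in 2 libraries of wild type (WT) littermates. Both groups were on the C57BL/6J background, a strain with black pigment, were 1 month old and untreated, and each library was a pool of 6 to 12 lenses that was stored in RNAlater. Mice of both sexes were used in the study, and neither the sex nor the number of the animals in a pool was given, so the error of each value is the spread between 2 pools.

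The values are normalized read counts, meaning reads per gene after scaling each library by its own size factor, with no division by gene length. A single read was worth 0.856 and 1.01 in the *S100A4*-/- libraries, of 81602367 and 74108017 reads, and 1.04 and 1.09 in the WT libraries, of 70253985 and 68038158 reads. *S100a4* itself had values of 14.6 and 18.2 in the *S100A4*-/- libraries against 14420 and 14385 in the WT libraries, as the labels require. The lens label also held in all 4 libraries. The 12 lens fiber genes listed, led by *Cryaa* (alpha-crystallin), summed to 25646281 and 27372083 in the *S100A4*-/- and to 27642656 and 27680730 in the WT libraries. Whole lenses hold several cell types, and in such samples a change in the number of cells of a type and a change in RNA per cell cannot be told apart.

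The regions just upstream of the members' start sites are shown first, because MITF, the basic helix-loop-helix factor encoded by *Mitf*, is known to bind short motifs of the E-box type before pigment genes. RefSeq promoters (GRCm38.p6, 250 bases before to 50 after each start) were found for 5 of the 7 members, namely *Tyr*, *Tyrp1*, *Dct*, *Oca2* and *Mitf*, the last with 3 start sites. The letters CATGTG, the core of the M-box, were searched on both strands, where the reverse strand reads CACATG. They occurred in the promoters of *Tyr*, *Tyrp1*, *Dct* and *Oca2* and in none of the 3 of *Mitf*. Each match is printed 5′ to 3′ on the strand of its gene with 12 bases on either side, and the capitals mark the match.
Tyr, chr7:87493516-87493545: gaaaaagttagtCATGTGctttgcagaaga
Tyrp1, chr4:80834155-80834184: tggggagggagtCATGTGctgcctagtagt
Dct, chr14:118052379-118052408: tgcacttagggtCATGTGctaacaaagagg
Dct, chr14:118052461-118052490: gcttggctgggaCACATGagcccaataaag
Oca2, chr7:56239561-56239590: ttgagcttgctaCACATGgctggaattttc

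The first base of the match lay 21 bases before the start of *Tyr*, 46 before *Tyrp1*, 150 and 232 before *Dct*, and 186 before *Oca2*. These distances are from the RefSeq starts, and the GENCODE annotation begins *Tyrp1* further upstream, so that its window lies inside the gene there. Among 32851 promoters of the same length in the RefSeq table, 14.2% held these letters at least once. A match of 6 letters is therefore common, and it is a description of the sequence and not a binding site. The matches of *Tyr* and *Tyrp1* shared a longer stretch, AGTCATGTGCT, which was chosen after the sequences were seen. It was held by 7 of the 32851 promoters (0.0213%), those of *Tyr* and *Tyrp1* among them. The *Dct* match 150 bases before the start had the same stretch but for its first letter, G in place of A. The other E-box form, CACGTG, which is its own reverse complement, was in none of the 7 member promoters and in 7.15% of all.

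The whole region of 250 bases before the start of *Dct*, the member with the highest ratio of *S100A4*-/- to WT reads but for *Mlana*, is printed because it held 2 such matches and letters of 2 more motifs. The letters ACAAAG (reverse CTTTGT), a core bound by SOX factors, began 192 and 141 bases before the start. The letters GGATTA (reverse TAATCC), the core bound by OTX factors, were on the reverse strand 119 bases before it. The SOX letters were in 18.7% and the OTX letters in 7.06% of all promoters of 300 bases. Within the 250 bases before the start these shares were 16.5% and 6.25%. No match in *Dct* overlapped another. The SOX letters were also in the promoters of *Tyrp1* (190 bases before the start) and *Oca2* (65 before it). The OTX letters were also in those of *Tyrp1* (5 bases after the start) and *Mitf* (119 before a start). Capitals again mark CATGTG or CACATG.
Dct, chr14:118052247-118052496: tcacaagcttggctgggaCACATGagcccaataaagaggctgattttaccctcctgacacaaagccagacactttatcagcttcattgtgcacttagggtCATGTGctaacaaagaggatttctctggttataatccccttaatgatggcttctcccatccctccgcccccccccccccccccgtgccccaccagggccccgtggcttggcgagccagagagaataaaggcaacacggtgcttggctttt

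Of the 7 members, *Tyr*, *Tyrp1*, *Dct*, *Pmel* and *Mlana* had higher values in both *S100A4*-/- libraries than in either WT library, *Oca2* had overlapping values in the groups, and *Mitf* was slightly lower in both *S100A4*-/- libraries. In the fit across all genes (limma, at least 2-fold and a Benjamini-Hochberg adjusted p of at most 0.05), 5 of the 7 members were called higher, against 3.65% of the 14780 genes tested, and 0 lower, by limma, edgeR and DESeq2 alike, against 0.0744%. Both *S100A4*-/- libraries lay above both WT libraries in 5 members and in 23.7% of all genes tested, and below them in 1 member and in 23.2%. Since these values led to the choice of the genes, nothing is read from these counts. The median log2 fold change was 2.43 over the 7 members and -0.01 over all genes tested. *Mlana* reached the lower limit of the test, a value of 10 in at least 1 library, in the *S100A4*-/- libraries alone.

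**Figure D1:**
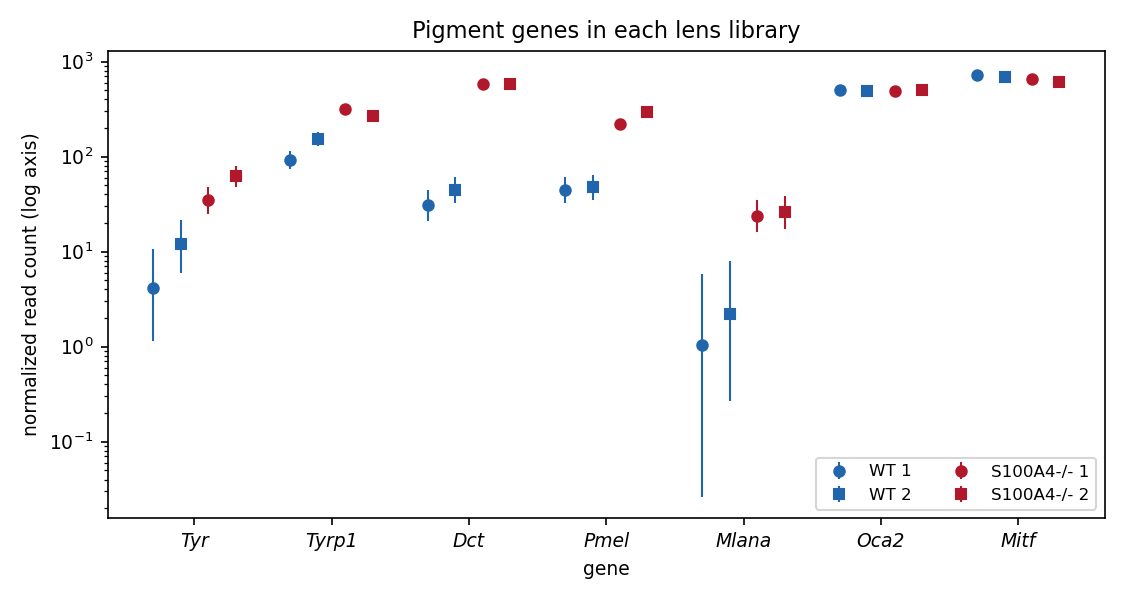
Normalized read count (log axis) of the 7 members in each of the 4 libraries, with circles and squares for the first and second library of a group, blue for WT and red for *S100A4*-/-. Bars are exact 95% Poisson intervals of the reads and cover counting error only. The red points of *Tyr*, *Tyrp1*, *Dct*, *Pmel* and *Mlana* lie above both blue points, those of *Oca2* lie between 494 and 507 with the blue ones, and those of *Mitf* lie below them.

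*Tyr* (ENSMUSG00000004651, GRCm38 chromosome 7, 87424771 to 87493512, reverse strand) encodes tyrosinase, the enzyme that oxidizes tyrosine and without which no melanin is made. Its values were 35.1 and 62.8 in the *S100A4*-/- libraries, from 41 and 62 reads, against 4.18 and 12.0 in WT, from 4 and 11 reads. Both *S100A4*-/- values lay above both WT values, and the second library of each group was the higher one. The *S100A4*-/- mean of 49.0 ± 19.6 (SD, n = 2) and the WT mean of 8.11 ± 5.56 (SD, n = 2) correspond to a log2 fold change of 2.55, with a standard error of 0.50. The WT libraries differed 2.88-fold from each other, and the log2 fold change was 1.88 without the first and 3.21 without the second of them, so the size of the difference is known less well here than for the other enzymes.

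*Tyrp1* (ENSMUSG00000005994, chromosome 4, 80834123 to 80851719, forward strand) encodes the related protein that stabilizes tyrosinase and acts late in the synthesis of the dark form of melanin. The *S100A4*-/- libraries had 314 and 268 and the WT libraries 92.9 and 153. The groups did not overlap, but the WT libraries differed 1.65-fold from each other, and the log2 fold change of 1.27 (standard error 0.17) was the smallest of the 5. Without the first WT library it was 0.92, which is below 2-fold. In all such fits without a library, 1 group has a single library, and its spread is assumed to be that of the other group.

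*Dct* (ENSMUSG00000022129, chromosome 14, 118012790 to 118052244, reverse strand) encodes dopachrome tautomerase, which converts dopachrome to a carboxylated intermediate. Its *S100A4*-/- values were 581.5 and 581.7, with an SD of 0.197, and its WT values were 31.3 and 44.9. In reads these were 679 and 574 against 30 and 41. The WT libraries differed 1.43-fold from each other, and the groups did not overlap. The ratio of the normalized reads was 15.3, with a 95% counting interval of 12.1 to 19.8.

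The 3 enzymes had different ratios between the groups, and their proportions are given as a description, since the values of *Dct* were among those that led to the choice of the genes. In the WT libraries most reads of the tyrosinase family were on *Tyrp1*, 72.4% and 72.9% of 123 and 192 reads, and *Dct* took 24.4% (Wilson 95% interval 17.7 to 32.7) and 21.4% (16.1 to 27.7). In the *S100A4*-/- libraries *Dct* took 62.5% (59.5 to 65.3) of 1087 reads and 63.8% (60.6 to 66.9) of 900, and *Tyrp1* took 33.8% and 29.3%. The intervals cover counting error only, and reads without molecular identifiers are not independent molecules. *Tyr* held 3.77% and 6.89% in the *S100A4*-/- and 3.25% and 5.73% in the WT libraries, shares that lay in the same range in both groups. Divided by exonic length, the *Dct* share was 45.9% and 48.8% against 13.7% and 12.0%. *Dct* was then level with *Tyrp1* in *S100A4*-/- lenses rather than ahead of it. Per kb of the longest transcript *Dct* was ahead in these lenses, with a mean of 168 against 107 for *Tyrp1*.

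**Figure D2:**
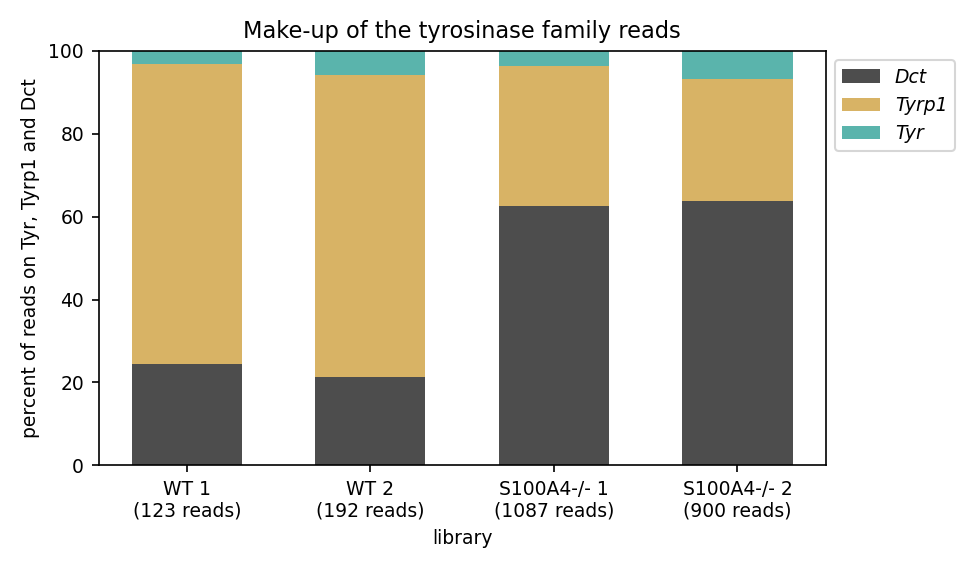
Share of the reads on *Tyr*, *Tyrp1* and *Dct* (percent, bars from 0) taken by each gene in each library, with the number of reads under the bar. *Dct* makes up 24.4% and 21.4% of the WT bars and 62.5% and 63.8% of the *S100A4*-/- bars, and *Tyrp1* the larger part of the WT bars.

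*Pmel* (ENSMUSG00000025359, chromosome 10, 128704195 to 128720238, forward strand) encodes the protein of the fibrils on which melanin is deposited. It had 223 and 292 in the *S100A4*-/- libraries against 44.9 and 48.2 in the WT libraries, means of 257 ± 49.0 (SD, n = 2) and 46.5 ± 2.32 (SD, n = 2). The groups were well apart, and the log2 fold change was 2.43 ± 0.20 (standard error). *Mlana* (ENSMUSG00000024806, chromosome 19, 29697824 to 29708634, forward strand) encodes a small membrane protein of early melanosomes that binds PMEL. Its values were 24.0 and 26.4 against 1.04 and 2.19. The WT values stand for only 1 and 2 reads, below the limit of 3 reads taken as detectable, whereas the *S100A4*-/- libraries had 28 and 26. The ratio of 15.6 accordingly had a wide counting interval, from 5.07 to 78.2.

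*Oca2* (ENSMUSG00000030450, chromosome 7, 56239760 to 56536518, forward strand) encodes a melanosomal membrane protein involved in chloride transport and the pH of the organelle. It had 495 and 507 in the *S100A4*-/- libraries against 507 and 494 in WT. The groups overlapped, the log2 fold change was 0.0007 (standard error 0.095), and the counting interval of the ratio ran from 0.915 to 1.09. *Mitf* (ENSMUSG00000035158, chromosome 6, 97807052 to 98021349, forward strand) encodes the transcription factor that drives the expression of pigment genes in melanocytes and in the retinal pigment epithelium. Its values were 659 and 617 against 723 and 693, 638 ± 29.8 (SD, n = 2) in the *S100A4*-/- and 708 ± 20.8 (SD, n = 2) in the WT lenses. Both *S100A4*-/- values lay below both WT values, and the log2 fold change was -0.15 (standard error 0.09). The gene has several start sites, and the table does not separate their transcripts.

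Compared with *Mitf* within each library, *Dct* had 0.882 and 0.943 times its value in the *S100A4*-/- libraries but 0.0434 and 0.0648 times in WT. The values of the 7 members summed to 2332 and 2354 in *S100A4*-/- and to 1404 and 1447 in WT lenses. *Mitf* and *Oca2* made up most of the WT sum, so the sum differed less between the groups than the enzymes did.

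Levels of different genes were compared per kb of exon. In WT lenses the order was *Oca2* (126 normalized reads per kb), *Mitf* (114), *Tyrp1* (43.5), *Pmel* (20.3), *Dct* (6.46), *Mlana* (1.53) and *Tyr* (1.14). Only the last 2 overlapped between libraries, *Mlana* with 0.988 and 2.07 and *Tyr* with 0.588 and 1.69 per kb. In *S100A4*-/- lenses *Oca2* (126), *Pmel* (112), *Tyrp1* (103), *Mitf* (103) and *Dct* (98.7) lay close together, with *Mlana* (23.8) and *Tyr* (6.89) below them. *Pmel* ranged from 97.1 to 127 per kb between the *S100A4*-/- libraries, which spans the means of the other 4. Per kb of the longest transcript the WT order was the same, but *Dct* came first in *S100A4*-/- lenses, at 168 per kb against 148 for *Oca2*.

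**Figure D3:**
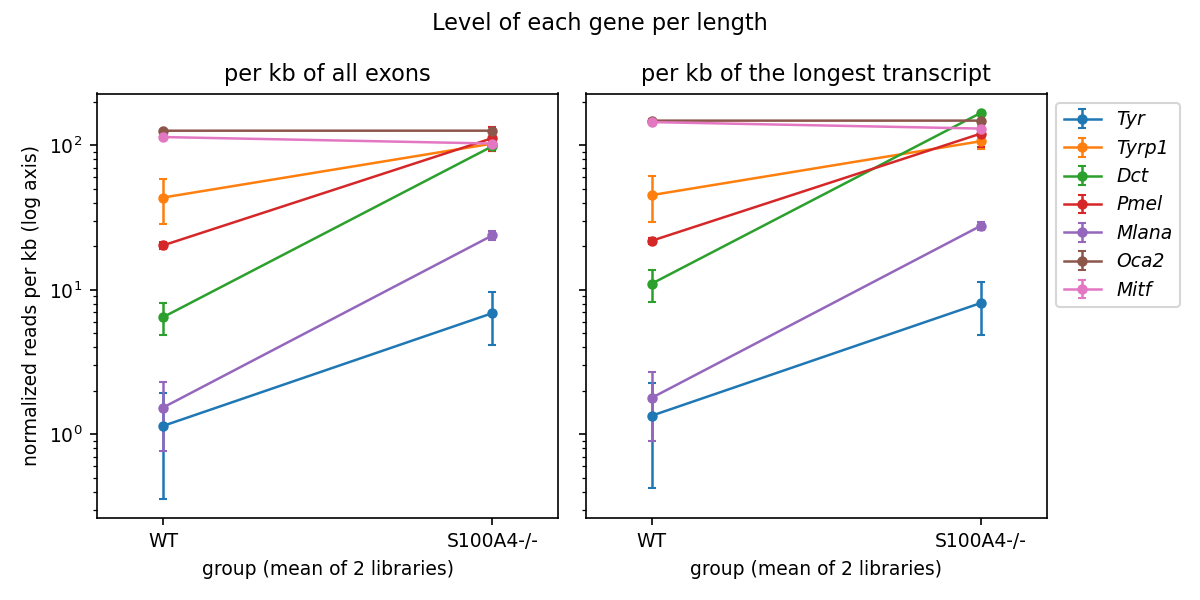
Normalized reads per kb (log axis) of the 7 members in WT and *S100A4*-/- lenses, per kb of all exons (left) and of the longest transcript (right). Points are means of 2 libraries and bars the SD. The lines of *Oca2* and *Mitf* are nearly flat near 126 and 114 per kb of exon, while the other genes lie higher in *S100A4*-/- lenses.

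The genes around these members in the pathway were read from 4 lists of melanosome and pigment-cell genes. Of 63 genes listed, 55 were tested. By limma, 6 of the 55 were called higher in *S100A4*-/- lenses, beside 3.65% of all genes tested, and the other 49 were not called. The median log2 fold change was 0.02, beside -0.01 over all genes tested. The 6 were *Mlph*, *Gpnmb*, *Slc24a5*, *Edn3*, *Tfap2b* and *Otx2*. The remaining 8 listed genes, among them *Mc1r*, *Asip* and *Pax3*, were not analysed here.

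The machinery that assembles and moves melanosomes, which most cells also use for other lysosome-related organelles, gave 1 call among 25 genes, a share near the 3.65% of all genes tested, and a median of -0.04. The call was *Mlph*, melanophilin, the linker between RAB27A and myosin Va on melanosomes. It had 48.0 and 49.7 in the *S100A4*-/- and 6.26 and 7.66 in the WT libraries, and it passed the limit on low values in the *S100A4*-/- libraries alone (log2 fold change 2.65, standard error 0.46, limma, adjusted p = 7.15e-05). The partner *Rab27a* had 26.5 and 34.5 against 13.6 and 21.9, a log2 fold change of 0.77 with an adjusted p of 0.356, and was named after its values were seen. *Dtnbp1*, a subunit of the BLOC-1 sorting complex and the most abundant gene of the list, had a log2 fold change of -0.01 (limma, adjusted p = 0.946).

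Of 11 tested genes of melanosome channels, carriers and granule proteins, 2 were called, and the list's median was 0.32. *Gpnmb*, a melanosomal glycoprotein related to PMEL that macrophages also express, rose from 38.6 and 28.5 in the WT to 262 and 302 in the *S100A4*-/- libraries (log2 fold change 3.05, standard error 0.21, limma, Benjamini-Hochberg adjusted p = 3.46e-14). *Slc24a5*, a cation exchanger of the pigment cell, had 20.6 and 21.3 against 5.22 and 2.19 (log2 fold change 2.30, limma, adjusted p = 0.0277). That call was lost without either *S100A4*-/- library and without the second WT library, where the log2 fold change was 2.32, 2.28 and 1.82. *Slc24a5* also passed the limit on low values in the *S100A4*-/- libraries alone. A further 2 genes of the list differed by less than 2-fold with a small p: *Trpm1*, a channel of melanocytes and retinal ON-bipolar cells (1186 and 1005 against 593 and 562, log2 fold change 0.92, limma, adjusted p = 1.08e-10), and *Slc7a11*, the cystine carrier and most abundant gene of the list (log2 fold change 0.32, limma, adjusted p = 3.19e-04). *Trpm1* was named after its values were seen.

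Among 8 tested genes of pigment-cell signalling 1 was called, *Edn3*, a ligand of the endothelin receptor B with a role in melanocyte development. It had 76.2 and 66.9 in the *S100A4*-/- and 16.7 and 20.8 in the WT libraries (log2 fold change 1.88, standard error 0.33, limma, adjusted p = 9.08e-05). The receptor *Ednrb* had 414 and 397 against 444 and 458, a log2 fold change of -0.15 that was not called (limma, adjusted p = 0.477). *Kit*, the receptor on which melanocytes depend, had 109 and 114 against 95.0 and 155, so that the WT values enclosed the *S100A4*-/- ones. The most abundant gene, the ubiquitin ligase *Mgrn1*, had a log2 fold change of -0.02 (limma, adjusted p = 0.914). *Ednrb* and *Kit* were named after their values were seen.

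Among 11 tested transcription factors of pigment cells 2 were called. *Tfap2b*, an AP-2 factor, had 48.8 and 41.6 against 2.09 and 10.9 (log2 fold change 2.92, standard error 0.55, limma, Benjamini-Hochberg adjusted p = 2.60e-04). *Otx2*, a homeobox factor of photoreceptors and of the retinal pigment epithelium, had 85.6 and 59.8 against 23.0 and 15.3 (log2 fold change 1.88, standard error 0.34, limma, adjusted p = 1.41e-04). Both calls were lost without the first *S100A4*-/- library (log2 fold change 2.81 and 1.62), and that of *Tfap2b* also without the second (3.04). The log2 fold change of *Tfap2b* was 1.95 without the first WT library, whose 2 reads are below the limit of 3 reads, and 3.90 without the second. *Pax6*, the most abundant factor of the list, had a log2 fold change of 0.07 (limma, adjusted p = 0.536).

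**Figure D4:**
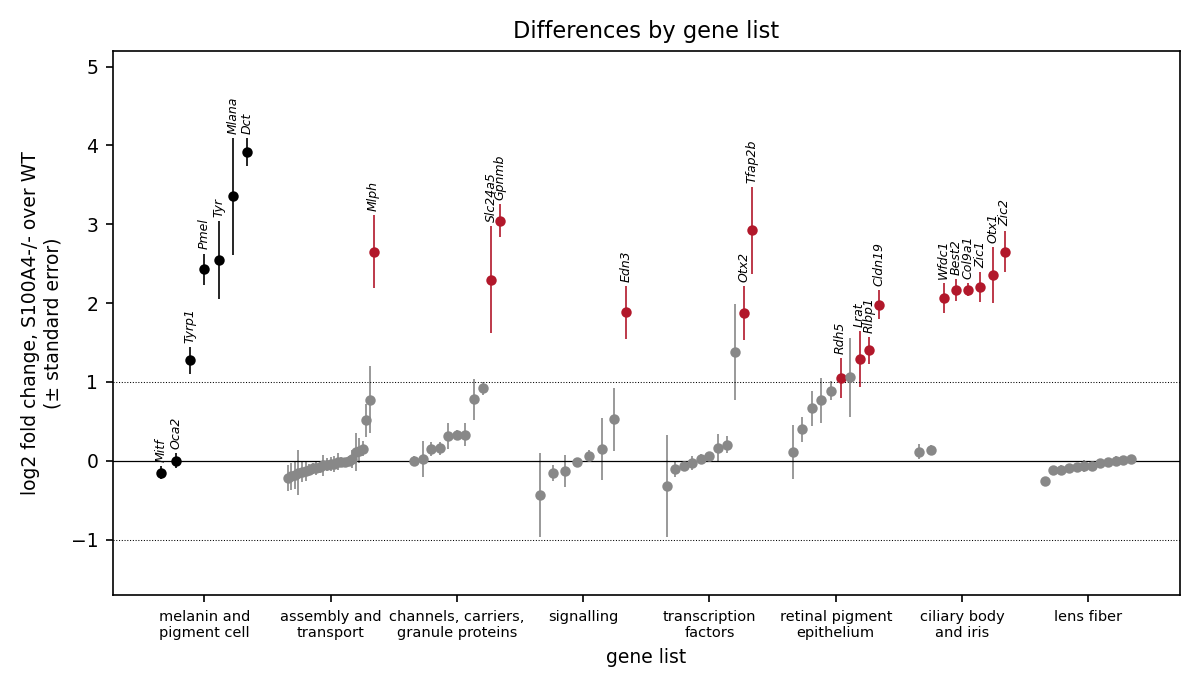
Log2 fold change of *S100A4*-/- over WT lenses with its standard error for each gene of 8 lists, one point per gene, ordered within a list. Black points are the 7 members, red points are genes of the other lists called higher, grey points were not called, and dotted lines mark 2-fold. Most genes of the 4 pathway lists lie near 0, while 6 of the 8 ciliary body and iris genes lie above 2-fold.

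Part of the markers of the retinal pigment epithelium and of the ciliary body and iris were called higher as well. Of 10 tested retinal pigment epithelium markers, 4 were called higher, beside 3.65% of all genes tested, and 6 were not called, with a median log2 fold change of 0.97. They were *Cldn19*, a tight junction claudin (1.98, limma, Benjamini-Hochberg adjusted p = 1.35e-10), *Rlbp1*, a carrier of retinaldehyde that Müller glia share (1.40, adjusted p = 7.62e-08), and the retinoid enzymes *Lrat* (1.29, adjusted p = 0.0168) and *Rdh5* (1.05, adjusted p = 0.00425). Both *S100A4*-/- libraries lay above both WT libraries in 9 of the 10 markers, beside 23.7% of all genes tested. The other, *Slc16a8*, overlapped between the groups. *Rpe65*, not called, had 63.4 and 68.9 against 35.5 and 41.6, a log2 fold change of 0.77 (limma, adjusted p = 0.108). *Slc16a8* and *Rpe65* were named after their values were seen. The list summed to 1529 and 1467 in the *S100A4*-/- and 723 and 774 in the WT libraries. *Ttr* (transthyretin) was its most abundant gene, at 449 and 408 against 211 and 253. Without either *S100A4*-/- library 2 markers were called, the calls of *Lrat* (log2 fold change 1.25 and 1.34) and *Rdh5* (0.96 and 1.15) being lost. Without the second WT library that of *Lrat* was lost (0.98) and *Ttr* was called (1.02).

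Of the 8 ciliary body and iris markers, 6 were called higher, beside the same 3.65%, and 2 (*Msx1* and *Aqp1*) were not called, with a median of 2.17. The transcription factors *Zic2* (2.65, limma, Benjamini-Hochberg adjusted p = 7.50e-10), *Otx1* (2.36, adjusted p = 5.80e-06) and *Zic1* (2.20, adjusted p = 1.47e-11) were among them, with *Col9a1*, a collagen chain (2.17, adjusted p = 5.91e-22), *Best2*, a channel of the non-pigmented ciliary epithelium (2.17, adjusted p = 2.92e-15), and *Wfdc1* (2.06, adjusted p = 5.72e-11). The list summed to 7096 and 6501 against 3471 and 3821. *Aqp1*, a water channel that the lens epithelium also expresses, was the most abundant gene, and without it the sums were 4457 and 4001 against 1193 and 1441.

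Markers of cells without melanin were read in the same way, beside the same 3.65% of all genes tested that were called higher. All 12 rod photoreceptor markers were called higher, with a median of 2.12, sums of 12483 and 12111 against 2827 and 2927, and *Gnat1* (rod transducin) the most abundant. Of 7 Müller glia markers 4 were called. The list summed to 85427 and 87123 against 80519 and 80934, and without *Dkk3*, the most abundant, to 6994 and 6807 against 2664 and 2905. Of 7 tested macrophage markers 4 were called by limma and 1 by DESeq2, with sums of 283.5 and 248.3 against 100.2 and 76.6 and *Csf1r* the most abundant. Without the first *S100A4*-/- library none of these 4 was called, with log2 fold changes of 0.99 (*C1qc*) to 2.90 (*C1qb*), and that of *C1qb* was 3.99 without the first and 1.28 without the second WT library. Of 6 tested endothelial markers 1 was called, *Kdr*, with 74.5 and 60.8 against 9.40 and 9.85. The list summed to 217 and 220 against 113 and 141. *Tek*, its most abundant gene by the mean of all 4 libraries, had lower values in the *S100A4*-/- libraries, 46.2 and 44.6 against 49.1 and 59.1. In both *S100A4*-/- libraries *Kdr* was more abundant than *Tek*. *Myh11* was the called gene among 3 tested smooth muscle markers, where *Acta2* made up 99.8% of the sum, and *Myh11* was not called without either *S100A4*-/- library (log2 fold change 2.23 and 1.88). *Kdr* and *Myh11* passed the limit on low values in the *S100A4*-/- libraries alone. Of 5 tested Schwann cell markers, led by *Pmp22*, 0 were called by limma, edgeR or DESeq2, 1 had an unadjusted p below 0.05 in limma, and their sums of 12144 and 12659 against 12888 and 12989 did not move with the pigment genes. For lens fiber genes 0 of 12 were called by any of the 3 tools, 2 had an unadjusted p below 0.05, and the median was -0.06. *Grifin*, a galectin-related protein of lens fibers that was named after its values were seen, was lower by less than 2-fold, with 103287 and 103497 against 125413 and 121830 (log2 fold change -0.26, limma, adjusted p = 1.24e-05). No listed gene was at 0 reads in all libraries. The tyrosinase family summed to 931 and 912 against 128 and 210, and the part of these other cell types in the differences of the pigment genes was not tested.

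**Figure D5:**
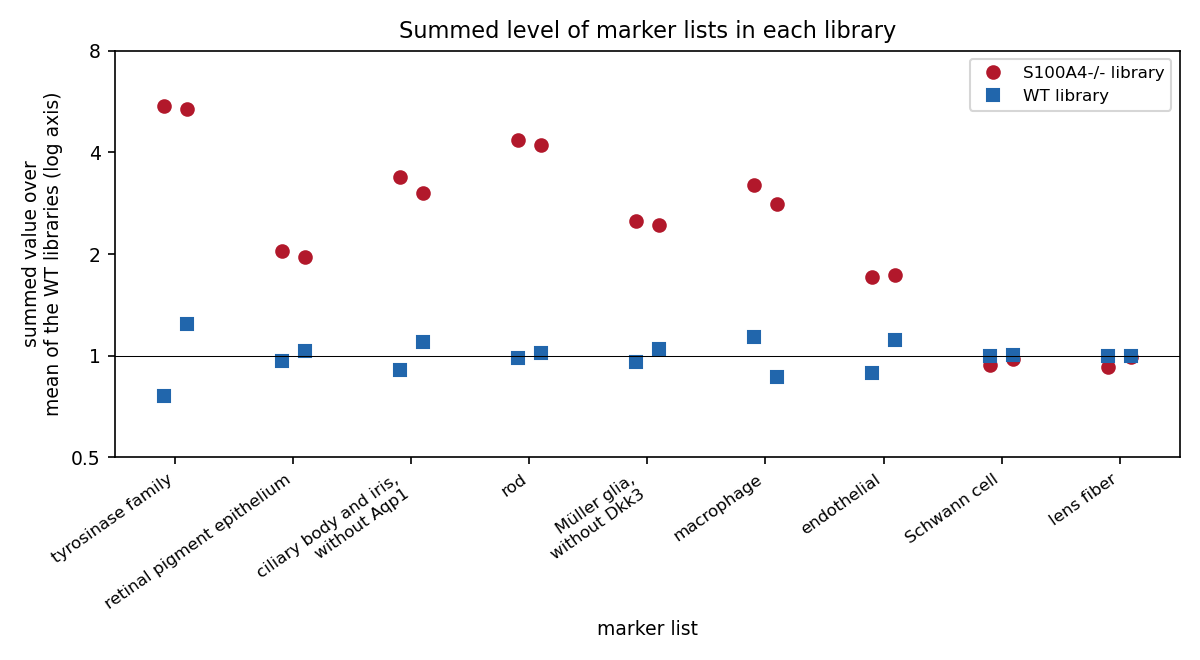
Summed value of each marker list in each library over the mean of the WT libraries (log axis), with red circles for *S100A4*-/- and blue squares for WT. The ciliary body and iris sum is drawn without *Aqp1* and the Müller glia sum without *Dkk3*. The tyrosinase family, rod, macrophage, ciliary body and iris, Müller glia, retinal pigment epithelium and endothelial sums lie higher in both *S100A4*-/- libraries. With *Dkk3* included, which is not drawn, the Müller glia sum of the *S100A4*-/- libraries is 1.07 times that of WT. The Schwann cell and lens fiber sums lie close to 1.

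The sex of the animals in the pools was checked through genes of the sex chromosomes, since the pools could differ in it. *Xist* had 4685 and 3307 in the *S100A4*-/- and 3426 and 3784 in the WT libraries, and the Y-linked *Eif2s3y* had 354 and 375 against 207 and 187, which was below 2-fold (log2 fold change 0.88, limma, adjusted p = 2.28e-06). The other Y-linked genes listed differed less, *Ddx3y* with a log2 fold change of 0.43 (limma, adjusted p = 0.0143), *Kdm5d* with 0.54 (adjusted p = 0.0513) and *Uty* with 0.27 (adjusted p = 0.476), and these 4 genes were named after their values were seen. All 4 libraries thus held RNA of both sexes. The part of sex in the values of the pigment genes was not tested.

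The genes whose pattern over the 4 libraries lay nearest to that of *Dct* were found by the Euclidean distance between log2 values centred on each gene's mean, among 11335 other genes whose mean value was 50 or more. They were *Gpnmb* (distance 1.10), *Impg1*, a proteoglycan of the matrix around photoreceptors (1.27), *Zic2* (1.29), *Lrmda*, a leucine-rich protein linked to melanocyte differentiation (1.31), and *Tenm1*, a teneurin (1.33). *Lrmda* had 88.2 in each *S100A4*-/- library against 12.5 and 14.2 in the WT libraries. Nearest to the median profile of the 7 members were *Cldn1* (0.264), *Chil1* (0.303), *Igf2* (0.309) and *Rtbdn* (0.332). *Cldn1*, a tight junction claudin, had 130 and 167 against 29.2 and 47.1. With 4 libraries in 2 groups, such a distance mainly reads the size of the difference between the groups, and it is given as a description.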

How the data were processed

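Stranded poly(A) RNA libraries of *S100A4*-/- and WT mouse lenses, 2 of each, were sequenced in 1 lane. Per the labels and the study's methods, the authors trimmed the reads (Trim Galore), aligned them to the mouse genome build mm10 (STAR), counted reads of a single locus (HTSeq), required 10 or more reads in some library and normalized with DESeq2. The values deposited are the resulting normalized counts (a signal, not whole counts). Each was a whole multiple of the value of 1 read, within 0.01, so reads were recovered by division. All value columns were matched to a sample, leaving 0 without one. Symbols and coordinates came from GENCODE M21 for 14782 of 14924 genes, and promoters from RefSeq (GRCm38.p6).

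The groups were compared with limma on log2(value + 1), with a trend of variance and without covariates, for the 14780 genes that reached a value of 10 in 1 or more libraries. Fold changes on this scale understate the change of low genes. Called genes differed by at least 2-fold at a Benjamini-Hochberg adjusted p of at most 0.05 over all genes tested. Alternatives were pseudocounts of 0.5 and 5, no filter, a mean of at least 50, TMM factors, equal totals, quantile normalization, limma without trend, no fold threshold, the replicate number as a block, edgeR and DESeq2 on the recovered reads, and each library left out in turn. Ratios of reads have exact 95% intervals and shares of reads Wilson 95% intervals, both of counting error only. Values of fewer than 3 reads were taken as not detectable.

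Named were *S100a4*, the members, from each list the called genes (up to 6 by fold change) and the most abundant gene, and the 5 genes nearest to *Dct* and to the members' median, of which some are not reported here. The members and lists were chosen with earlier results of these data known. The models were tested on simulated data with known changes. Models were fitted in R 4.3.3 with limma 3.58.1, DESeq2 1.42.0 and edgeR 4.0.16, and the remaining steps used Python 3.11.15 with pandas 2.3.3, numpy 2.4.6, matplotlib 3.10.9 and scipy 1.17.1.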

Additional observations from a re-analysis of the deposited data

How the results depend on the processing

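The 5 members with higher values kept that direction under each alternative, with log2 fold changes of 1.88 to 3.21 (*Tyr*), 0.92 to 1.63 (*Tyrp1*), 3.67 to 4.17 (*Dct*), 2.24 to 2.62 (*Pmel*) and 2.19 to 3.97 (*Mlana*), *Tyr* and *Mlana* not being tested with a mean of at least 50. *Oca2* stayed between -0.02 and 0.03 and *Mitf* between -0.20 and -0.10. Called members numbered 5, but 3 without the trend and 3 with a mean of at least 50. Without the trend *Tyr* and *Tyrp1* were lost, with unchanged log2 fold changes of 2.55 and 1.27. Over all genes, 539 were called higher and 11 lower. A mean of at least 50, which tests fewer genes, gave 281 and 6, limma without trend 174 and 7, no fold threshold 831 and 197, quantile normalization 376 and 23, and DESeq2 421 and 6. Leaving out single libraries gave 275 to 535 higher and 6 to 13 lower. It left 3 to 5 members called, with *Mlana* lost without the first *S100A4*-/- library, *Tyr* and *Mlana* without the second, and *Tyrp1* without the first WT library. It gave 1 to 2 channel and granule genes, with *Trpm1* gained at 1.04 without the second *S100A4*-/- library and *Bace2* at 1.15 without the second WT library, 0 to 2 transcription factors and 2 to 4 retinal pigment epithelium markers. The cause was not tested.

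With a mean of at least 50, the assembly, signalling and transcription factor lists had 0 called genes each and the channel list 1. The channel list had 1 under quantile normalization, without trend and with DESeq2, and 4 with no fold threshold. Without trend, 0 transcription factors, 0 retinal pigment epithelium markers and 3 ciliary body and iris markers were called, and under quantile normalization 2 retinal pigment epithelium markers. DESeq2 and a pseudocount of 5 each gave 3 retinal pigment epithelium markers. With the replicate number as a block, 576 genes were higher and 15 lower. The calls among the members and the 4 pathway lists were the same in number. So were those of the retinal pigment epithelium and of the ciliary body and iris markers. The replicate numbers gave no pairing, since same-numbered libraries deviated together with a correlation of 0.0120. The value of 1 read, about 1, limits *Mlana* and *Tyr* most among the 7 members in WT lenses.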
